A study of Rattus norvegicus with 12 samples.

Results

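Genes of 7 solute carrier families that hold most amino acid carriers (Slc1, Slc3, Slc6, Slc7, Slc36, Slc38 and Slc43) were followed in RNA sequencing of rat kidney. Protein-coding genes were taken whose symbol begins with one of these family names and a member number, which gave 59 of the 18318 protein-coding genes with at least 1 read. There were 18 Slc6, 15 Slc7, 11 Slc38, 7 Slc1, 3 Slc36, 3 Slc43 and 2 Slc3 genes. A pair of rows carried the symbol Slc6a20a. The one whose identifiers RefSeq lists under Slc6a20b (ENSRNOG00000006010) is called Slc6a20b here, and the other (ENSRNOG00000068642) Slc6a20a. Slc7a6os met the rule by name only, because it is named for its position opposite Slc7a6 and is not a carrier.

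In the kidney, amino acids filtered into the tubule are taken back almost completely by proximal tubule cells. Carriers in the brush border, the folded membrane facing the filtrate, draw them in, mostly with sodium, and other carriers in the basolateral membrane pass them to the blood. Several Slc7 proteins work only when bound to a heavy chain, either rBAT (Slc3a1) in the brush border or 4F2hc (Slc3a2) elsewhere. A further group of carriers serves the needs of each cell and is induced through the transcription factor ATF4 when amino acids run short or protein synthesis is under stress.

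The study held 12 libraries in 3 groups of 4. Rats of the CPB+Nitrite group had cardiopulmonary bypass (CPB, circulation through a heart-lung machine) and nitrite, rats of the CPB group had bypass, and the label of the sham group names neither. The labels give the tissue as kidney and the treatment, and no dose, time, strain, age or region of the kidney. Nothing in them states that the libraries of a group came from separate animals, so p-values measure only the spread between these samples.

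Library totals were 16.8 to 25.8 M (mega) estimated reads, and levels are given as counts per M reads (CPM) scaled with edgeR's TMM factors. CPM are not corrected for gene length, so levels are compared between libraries and never between genes. Adjusted p-values are from edgeR's quasi-likelihood test, two-sided, with Benjamini-Hochberg adjustment over 14664 genes. A gene is called where its adjusted p was under 0.05, and "higher" or "lower" without a value refers to a called gene. Standard errors (SE) are on the log2 scale.

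The CPB+Nitrite libraries were not alike. Library 2 of that group stood apart from the other 11. Its thick ascending limb and distal tubule markers summed to 1082 CPM, against 6123 to 11415 CPM in the other CPB+Nitrite libraries, 6533 to 10714 CPM in CPB and 9209 to 12136 CPM in sham. Its endothelial markers summed to 2466 CPM, while the other 11 libraries had at most 440.1 CPM. Its collecting duct markers summed to 4266 CPM, while the other 11 libraries had at most 2199 CPM. Where a call in CPB versus sham or CPB+Nitrite versus sham differs without this library, the value without it is given beside the result.

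Of the 59 genes, 44 passed the filter on low counts and were tested. In CPB versus sham, 8 of the 44 were higher (18.2%) and 16 were lower (36.4%). Among all 14664 genes 21.7% were higher and 21.5% were lower. The median log2 change was -0.29 over the 44 genes and -0.05 over all genes tested. Without Slc7a6os it was -0.43, with 7 genes higher and 16 lower of 43. Scaling by total counts alone gave 8 higher and 18 lower of the 44, beside 2281 higher and 4269 lower over all genes, where TMM gave 3184 and 3148. The median of all genes was then -0.24. Without CPB+Nitrite library 2 in the shared fit, 13 of these genes were higher and 18 lower of 45, and 3697 of all genes were higher and 3877 lower. Without CPB 4 9 of them were lower and 2298 genes in all, without CPB 3 10 and 2242, and without sham 2 10 and 2323. The lower genes include Slc38a11 in each of these counts except that without CPB 4, and the 13 higher ones include Slc1a2. Both passed the filter through the group where they were high, so neither call is support for a change.

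**Figure D1:**
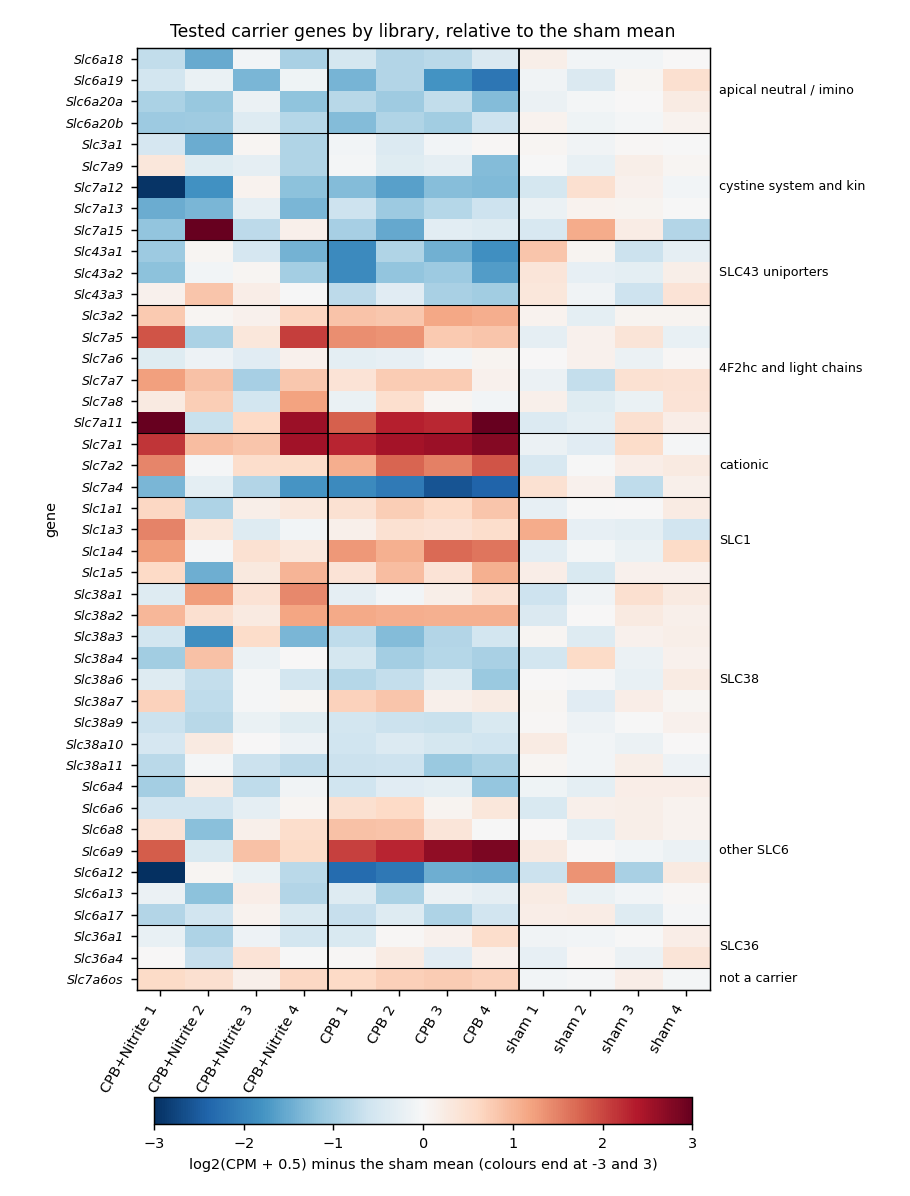
Level of each of the 44 tested genes in each library (columns: CPB+Nitrite, CPB and sham), as log2(CPM + 0.5) minus the sham mean of that gene, with genes grouped by role. The apical neutral and imino acid carriers and the SLC43 genes are below the sham mean in all 4 CPB libraries, and Slc7a1, Slc7a11 and Slc6a9 are above it in all 4.

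Of the 8 genes higher in CPB kidneys, 7 encode carriers or a heavy chain. They were the cationic amino acid carriers Slc7a1 and Slc7a2, the glycine carrier Slc6a9, the heavy chain Slc3a2, the cystine-glutamate exchanger Slc7a11, and the neutral carriers Slc38a2 and Slc1a4. Slc7a6os was the eighth. In all 8 genes every CPB library was above every sham library. Counting all 44 genes, the groups were apart with CPB above in 11 and below in 17, where 23.5% and 24.8% of all genes were.

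Slc7a1 (ENSRNOG00000000924, chromosome 12, 6628007 to 6703849 in mRatBN7.2) encodes CAT1, which brings arginine and lysine into most cells. It had 62.6, 26.5, 24.9 and 81.1 CPM in CPB+Nitrite libraries 1 to 4, 69.3, 79.6, 83.2 and 95.9 CPM in CPB, and 12.1, 10.7, 20.5 and 13.4 CPM in sham. CPB and CPB+Nitrite libraries all lay above the sham libraries, and CPB+Nitrite libraries 2 and 3 lay nearest to them. Its mean was 82.0 ± 11.0 CPM in CPB and 14.2 ± 4.36 CPM in sham (SD, n = 4 each). The difference was 5.79-fold (log2 change 2.53, SE 0.37, edgeR adjusted p = 0.00103). Slc7a2, which encodes the related arginine carrier CAT2, had 3.80, 1.03, 1.76 and 1.78 CPM in CPB+Nitrite, 2.81, 4.75, 3.97 and 5.29 CPM in CPB, and 0.633, 1.05, 1.31 and 1.40 CPM in sham. CPB libraries were all above sham, and CPB+Nitrite libraries overlapped both groups. Its log2 change in CPB versus sham was 1.93 (SE 0.41, edgeR adjusted p = 0.00401).

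Slc6a9 (ENSRNOG00000019484, chromosome 5, 131374542 to 131408728) encodes the glycine carrier GlyT1. It had 26.4, 5.06, 13.5 and 10.8 CPM in CPB+Nitrite, 30.9, 36.9, 47.9 and 53.9 CPM in CPB, and 8.64, 7.12, 6.75 and 6.24 CPM in sham. The 3 groups had separate ranges apart from CPB+Nitrite library 2, which was below every sham library. CPB kidneys had 5.88-fold the sham level (log2 change 2.56, SE 0.39, edgeR adjusted p = 0.0011).

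Slc3a2, the 4F2hc heavy chain, had 301.6, 182.1, 191.6 and 271.1 CPM in CPB+Nitrite, 316.4, 304.7, 391.2 and 366.8 CPM in CPB, and 188.1, 141.5, 184.2 and 185.4 CPM in sham. Its CPB libraries were above all others, and CPB+Nitrite library 2 lay inside the sham range. The change in CPB versus sham was 1.97-fold (log2 change 0.98, SE 0.19, edgeR adjusted p = 0.00232). Of the 6 tested genes for 4F2hc and its light chains, Slc3a2 and Slc7a11 were higher and none was lower. Slc7a11, the light chain xCT that exchanges cystine for glutamate and so feeds glutathione synthesis, was at 6.68, 0.0366, 0.784 and 4.53 CPM in CPB+Nitrite, 2.45, 3.83, 3.63 and 8.04 CPM in CPB, and 0.149, 0.201, 0.695 and 0.483 CPM in sham. CPB+Nitrite libraries 1 and 4 were in the CPB range, library 3 was just above sham, and library 2, with 1 read, was under every sham library. Sham libraries held only 4 to 17 reads of the gene, and the fitted change of 11.6-fold had a wide error (log2 change 3.54, SE 1.01, edgeR adjusted p = 0.0149).

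The other light chains were not called in CPB versus sham. Slc7a5 (LAT1, an exchanger of large neutral amino acids) had 64.0, 8.61, 21.8 and 73.2 CPM in CPB+Nitrite, 46.0, 44.0, 30.0 and 31.0 CPM in CPB, and 14.0, 18.7, 22.4 and 14.5 CPM in sham. All 4 CPB libraries exceeded all 4 sham libraries, while CPB+Nitrite libraries spanned both ranges and beyond. The log2 change in CPB versus sham was 1.12 (SE 0.50, edgeR adjusted p = 0.0832), and without CPB+Nitrite library 2 in the shared fit the adjusted p was 0.013. Slc7a7 and Slc7a8 encode the basolateral exchangers for cationic and neutral amino acids in the proximal tubule. Slc7a7 had 108.4, 84.7, 23.1 and 81.1 CPM in CPB+Nitrite, 61.8, 78.3, 79.0 and 50.9 CPM in CPB, and 41.1, 27.96, 63.4 and 62.8 CPM in sham (log2 change in CPB versus sham 0.47, edgeR adjusted p = 0.336). Slc7a8 had 25.4, 35.0, 14.0 and 48.8 CPM in CPB+Nitrite, 18.1, 29.9, 21.8 and 19.6 CPM in CPB, and 23.4, 16.1, 18.0 and 28.2 CPM in sham (log2 change in CPB versus sham 0.06, edgeR adjusted p = 0.893). In both genes the 3 groups overlapped. Slc7a6, a close relative of Slc7a7, had -0.14 (0.518).

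Slc38a2 (ENSRNOG00000006305) encodes SNAT2, a sodium-coupled carrier of small neutral amino acids that cells induce on amino acid shortage and hypertonic stress. It had 362.7, 257.3, 221.8 and 417.2 CPM in CPB+Nitrite, 401.4, 393.7, 382.9 and 380.9 CPM in CPB, and 134.9, 185.6, 218.4 and 204.2 CPM in sham. CPB libraries were close to each other, and the CPB+Nitrite libraries were above the sham libraries, with library 3 only just so. The CPB level was 2.10-fold that of sham (log2 change 1.07, SE 0.21, edgeR adjusted p = 0.00263). Slc1a4 (ASCT1, an exchanger of serine, alanine and cysteine) had 52.7, 21.1, 29.9 and 27.3 CPM in CPB+Nitrite, 54.5, 45.9, 71.1 and 67.3 CPM in CPB, and 17.4, 20.7, 19.0 and 32.6 CPM in sham. CPB libraries were all above sham, and only library 1 of CPB+Nitrite reached the CPB range. The log2 change in CPB versus sham was 1.41 (SE 0.28, edgeR adjusted p = 0.00303).

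**Figure D2:**
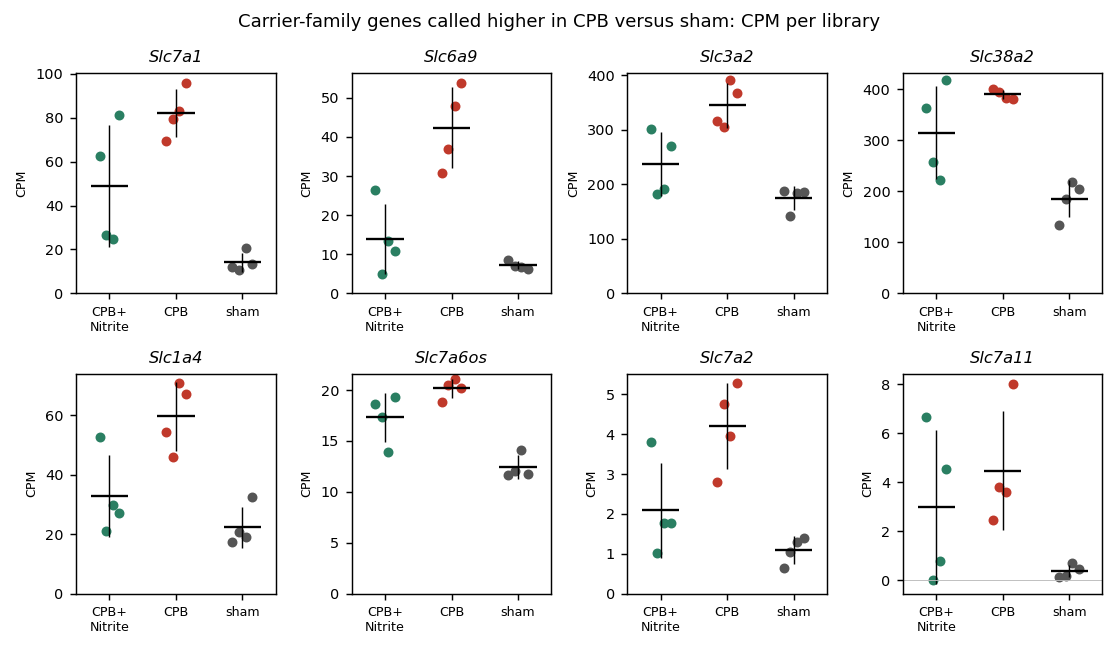
CPM in each library for the 8 genes called higher in CPB versus sham, with CPB+Nitrite, CPB and sham side by side (points are libraries, horizontal lines means, vertical lines SD, n = 4 each). In all 8 panels the CPB points lie above the sham points, and the CPB+Nitrite points spread over a wider range than the CPB points in Slc7a1, Slc38a2 and Slc3a2.

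The other Slc1 genes did not pass the test in CPB versus sham. Slc1a1 (EAAC1, the glutamate carrier of the brush border) had 124.9, 42.4, 91.2 and 100.8 CPM in CPB+Nitrite, 112.0, 134.2, 122.6 and 145.5 CPM in CPB, and 67.9, 80.0, 82.0 and 96.7 CPM in sham. CPB libraries were all above sham, with a log2 change of 0.66 (SE 0.25, edgeR adjusted p = 0.0534). Without CPB+Nitrite library 1 or library 2 it was called, at 0.66 to 0.68 (adjusted p = 0.00367 to 0.0342). RLE factors (0.69, edgeR adjusted p = 0.0445), DESeq2 (0.69, adjusted p = 0.0327) and limma voom (0.68, adjusted p = 0.00115) also gave a call. Slc1a5, the glutamine exchanger ASCT2, had a log2 change of 0.72 with non-overlapping groups (edgeR adjusted p = 0.141), and was called without CPB+Nitrite library 2 (0.72, adjusted p = 0.014). Slc1a3, a glutamate carrier, had 0.24 (0.695).

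Promoter sequence was read for the genes to show where the ATF4-type element lies, because several of the higher genes are known targets of the amino acid response. In 250 bases before the RefSeq start of transcription (build GRCr8), the 8 letters TGATGNAA were searched on both strands, a short form of the composite site that ATF4 and C/EBP proteins bind. An entry existed for 46 of the 59 genes, and 3 of them (6.52%) held the letters. Over all 27457 genes with an entry, 983 (3.58%) did. Their windows run as follows, 5′ to 3′ on the strand of the gene, with the match in capitals.
Slc7a1: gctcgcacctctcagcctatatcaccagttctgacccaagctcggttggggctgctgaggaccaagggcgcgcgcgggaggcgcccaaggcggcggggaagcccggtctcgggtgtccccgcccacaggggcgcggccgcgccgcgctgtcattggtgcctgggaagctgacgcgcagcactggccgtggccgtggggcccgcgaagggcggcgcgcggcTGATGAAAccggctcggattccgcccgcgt
Slc1a4: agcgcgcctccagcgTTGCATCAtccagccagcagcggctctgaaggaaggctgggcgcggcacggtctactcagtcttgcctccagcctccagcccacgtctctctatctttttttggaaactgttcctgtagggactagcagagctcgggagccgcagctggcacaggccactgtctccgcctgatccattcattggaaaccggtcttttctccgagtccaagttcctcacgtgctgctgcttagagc
Slc38a1: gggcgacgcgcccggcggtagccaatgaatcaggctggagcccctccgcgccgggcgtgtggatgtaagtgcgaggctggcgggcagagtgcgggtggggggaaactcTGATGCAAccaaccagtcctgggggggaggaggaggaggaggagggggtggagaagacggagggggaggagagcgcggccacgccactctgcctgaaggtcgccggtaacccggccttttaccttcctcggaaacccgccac
The Slc7a1 window is chr12:11664238-11664487 on the plus strand, and its match begins 30 bases before the start. For Slc1a4 it is chr14:98761563-98761812 on the minus strand, with the match on the opposite strand and its outermost base 235 bases before the start. The Slc38a1 window is chr7:129681402-129681651 on the minus strand, with the match beginning 142 bases before the start. Slc7a1 and Slc1a4 were higher in CPB versus sham and Slc38a1, a glutamine carrier, was not called (log2 change 0.03, edgeR adjusted p = 0.953). A match describes these letters and is not shown to be a bound site. Of the other higher genes, Slc38a2, Slc6a9, Slc3a2, Slc7a11 and Slc7a6os had no match, and Slc7a2 had no entry. Windows without a match only lack these letters in this stretch.

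The genes that were lower in CPB kidneys include the brush border carriers of neutral and imino acids. All 4 tested genes of that group were lower in CPB than in sham, and in all 4 every CPB library was below every sham library. Slc6a19 (ENSRNOG00000026501, chromosome 1, 29586195 to 29604962 in mRatBN7.2) encodes B0AT1, the main carrier of neutral amino acids in the brush border. It had 14.5, 18.7, 7.94 and 19.7 CPM in CPB+Nitrite, 7.86, 11.5, 5.78 and 4.35 CPM in CPB, and 19.9, 15.6, 22.6 and 29.9 CPM in sham. CPB+Nitrite library 3 lay in the CPB range and libraries 2 and 4 in the sham range. The CPB mean was 7.37 ± 3.10 CPM and the sham mean 22.0 ± 6.01 CPM (SD, n = 4 each), a log2 change of -1.57 (SE 0.34, edgeR adjusted p = 0.00421).

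Slc6a20a encodes a sodium-coupled carrier of proline and related imino acids, and Slc6a20b is a close relative of it. Slc6a20b had 27.5, 27.9, 44.8 and 32.2 CPM in CPB+Nitrite, 23.5, 31.5, 28.3 and 37.9 CPM in CPB, and 63.4, 53.6, 56.4 and 63.5 CPM in sham. Both bypass groups lay below every sham library, with a log2 change of -0.97 in CPB versus sham (SE 0.19, edgeR adjusted p = 0.00248). Slc6a20a had 12.8, 11.3, 22.3 and 10.7 CPM in CPB+Nitrite, 14.0, 11.9, 14.95 and 10.1 CPM in CPB, and 22.4, 24.1, 25.2 and 29.8 CPM in sham. All 8 bypass libraries were again below sham, although library 3 of CPB+Nitrite was within 1 CPM of it. The log2 change in CPB versus sham was -0.99 (SE 0.23, edgeR adjusted p = 0.00614). As near copies of each other these genes can exchange reads in the authors' counting, so the split between them is uncertain.

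Slc6a18, a brush border carrier of glycine and alanine in the mouse, had 302.6, 177.7, 480.7 and 258.0 CPM in CPB+Nitrite, 352.6, 276.3, 290.4 and 378.2 CPM in CPB, and 572.0, 479.7, 478.5 and 508.9 CPM in sham. CPB libraries were all below sham, and CPB+Nitrite library 3 was inside the sham range. The log2 change in CPB versus sham was -0.65 (SE 0.25, edgeR adjusted p = 0.0485). This call was lost without any one of the 4 CPB or 4 sham libraries or CPB+Nitrite libraries 1 or 4 (log2 change -0.73 to -0.58, adjusted p = 0.0527 to 0.12). It was also lost with RLE factors (-0.62, edgeR adjusted p = 0.0555) and with no filter (-0.65, edgeR adjusted p = 0.0585).

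The heavy chain of the cystine system and its main light chain were not called in CPB versus sham. Slc3a1 (rBAT) had 2883, 1458, 4276 and 2187 CPM in CPB+Nitrite, 3881, 3112, 3892 and 4224 CPM in CPB, and 4291, 3847, 4248 and 4101 CPM in sham. CPB overlapped sham, and 3 of the 4 CPB+Nitrite libraries were below both groups. The log2 change was -0.13 in CPB versus sham (SE 0.26, edgeR adjusted p = 0.718). Slc7a9, the main light chain of rBAT in cystine reabsorption, had 72.0, 43.6, 46.5 and 29.8 CPM in CPB+Nitrite, 54.6, 44.0, 47.4 and 22.6 CPM in CPB, and 56.3, 48.6, 64.0 and 58.7 CPM in sham. Its groups overlapped (log2 change in CPB versus sham -0.43, SE 0.28, edgeR adjusted p = 0.22).

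Slc7a13 (ENSRNOG00000024903, chromosome 5, 33277416 to 33298092), known in the mouse as a second partner of rBAT that carries cystine, aspartate and glutamate, was called lower. It had 680.2, 741.9, 1602 and 741.0 CPM in CPB+Nitrite, 1258, 904.1, 1061 and 1258 CPM in CPB, and 1707, 2088, 2051 and 1902 CPM in sham. Both bypass groups were below sham, and 3 of the 4 CPB+Nitrite libraries were below all CPB libraries. Its log2 change in CPB versus sham was -0.79 (SE 0.26, edgeR adjusted p = 0.027). The related Slc7a12 was lower as well, at -1.43 (SE 0.48, edgeR adjusted p = 0.0293), and Slc7a15 was not called (-1.54, edgeR adjusted p = 0.301). Leaving out sham 2, 3 or 4 or CPB 2 or 3 ended the call of Slc7a13 (-0.80 to -0.70, adjusted p = 0.0501 to 0.0764). Leaving out sham 2 or 3 or any CPB library ended that of Slc7a12 (-1.46 to -1.25, adjusted p = 0.0532 to 0.0776).

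All 3 SLC43 genes were lower in CPB versus sham. Slc43a2 (LAT4, a uniporter through which branched-chain and aromatic amino acids leave proximal tubule cells on the basolateral side in the mouse) had 35.8, 80.5, 89.6 and 41.3 CPM in CPB+Nitrite, 22.1, 37.2, 39.4 and 26.4 CPM in CPB, and 110.3, 71.8, 69.1 and 95.9 CPM in sham. CPB libraries were all below sham, CPB+Nitrite libraries 1 and 4 were in or just above the CPB range, and libraries 2 and 3 were in the sham range. The log2 change in CPB versus sham was -1.47 (SE 0.31, edgeR adjusted p = 0.00356). Slc43a1 (LAT3, a uniporter of similar substrates) had 1.14, 3.11, 1.96 and 0.8002 CPM in CPB+Nitrite, 0.435, 1.35, 0.793 and 0.469 CPM in CPB, and 5.70, 3.18, 1.72 and 2.42 CPM in sham. CPB libraries were below sham at a low level, with a log2 change of -2.09 (SE 0.54, edgeR adjusted p = 0.00924). Slc43a3, known in humans as a carrier of purine bases, had a log2 change of -0.88 (SE 0.29, edgeR adjusted p = 0.0294) with overlapping groups. That call was lost without sham 1 or 4 or CPB 1, 3 or 4 (-0.86 to -0.73, adjusted p = 0.06 to 0.0832).

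Slc7a4, a relative of the cationic carriers whose substrate is not settled, had 0.803, 2.24, 1.32 and 0.489 CPM in CPB+Nitrite, 0.395, 0.270, 0.0566 and 0.134 CPM in CPB, and 4.10, 3.18, 1.47 and 3.24 CPM in sham. The CPB libraries held 1 to 10 reads of it and lay below every other library. Its log2 change in CPB versus sham was -3.71 (SE 0.61, edgeR adjusted p = 0.00132).

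Among the 9 tested SLC38 genes, Slc38a2 was higher and Slc38a6, Slc38a9, Slc38a10 and Slc38a11 were lower in CPB versus sham. Slc38a6 had 3.55, 2.71, 4.51 and 3.07 CPM in CPB+Nitrite, 2.41, 2.70, 3.51 and 1.94 CPM in CPB, and 4.80, 4.63, 4.01 and 5.75 CPM in sham. CPB libraries were below sham (log2 change -0.86, SE 0.26, edgeR adjusted p = 0.0179), and the call ended without sham 4 or CPB 4 (-0.76 to -0.74, adjusted p = 0.0521 to 0.0544). Slc38a10 had 80.3, 139.3, 114.3 and 102.4 CPM in CPB+Nitrite, 75.3, 85.2, 78.7 and 75.9 CPM in CPB, and 134.6, 107.2, 101.8 and 116.1 CPM in sham. Again every CPB library was below every sham library (log2 change -0.54, SE 0.16, edgeR adjusted p = 0.0181), and without sham 1 the call ended (-0.46, adjusted p = 0.0566). Slc38a9, the lysosomal arginine sensor that signals to mTORC1, had a log2 change of -0.66 (edgeR adjusted p = 0.0315), which missed the threshold without any one CPB or sham library (-0.71 to -0.61, adjusted p = 0.0504 to 0.0773). Slc38a11 rested on 0 to 5 reads per CPB library and 10 to 18 per sham library (log2 change -2.19, edgeR adjusted p = 0.0207), and was not called without CPB 4 (-2.02, adjusted p = 0.0574). It passed the filter only because its sham libraries were high, so its call is no support for a fall.

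Slc38a3 (SNAT3) brings glutamine into proximal tubule cells for ammonia production. It had 168.4, 69.1, 361.9 and 95.9 CPM in CPB+Nitrite, 144.7, 101.0, 133.4 and 168.1 CPM in CPB, and 259.4, 187.8, 272.8 and 280.2 CPM in sham. CPB libraries were below sham without overlap, while the CPB+Nitrite libraries extended past both ends of the other 8. The log2 change in CPB versus sham was -0.87 (SE 0.41, edgeR adjusted p = 0.0973), and it was called without CPB+Nitrite library 2 or library 3 (-0.87, adjusted p = 0.0192 to 0.0423). Slc38a1, Slc38a4 and Slc38a7 had log2 changes of 0.03, -2.22 and 0.50 and were not called. Slc38a4, with 1 to 7 reads per CPB library, had an edgeR adjusted p of 0.0518. It was called lower without CPB+Nitrite 1 or 2, sham 1 or CPB 1 (-2.20, -2.21, -2.49 and -2.99 in that order, adjusted p = 0.0203, 0.0294, 0.047 and 0.0405). It was also called lower with total counts (-2.41, adjusted p = 0.0416), DESeq2 (-2.27, adjusted p = 0.0349) and limma voom (-2.65, adjusted p = 0.00627).

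Of the 7 other tested Slc6 genes, Slc6a9 was higher and Slc6a12 and Slc6a17 were lower in CPB versus sham. Slc6a12, the betaine carrier with which medullary cells gain an osmolyte, had a log2 change of -2.23 (SE 0.69, edgeR adjusted p = 0.021). Its sham libraries differed widely, from 7.85 to 41.4 CPM, and leaving out sham 2 or CPB 1 or 2 ended the call (-2.13 to -1.56, adjusted p = 0.0531 to 0.0818). Slc6a17, a vesicular carrier of neutral amino acids in neurons, had -0.66 (SE 0.21, edgeR adjusted p = 0.025), and leaving out sham 1 or 2 or CPB 1, 3 or 4 ended the call (-0.67 to -0.57, adjusted p = 0.0512 to 0.076). The taurine carrier Slc6a6 (log2 change 0.37), the creatine carrier Slc6a8 (0.55), the GABA carrier Slc6a13 (-0.43) and the serotonin carrier Slc6a4 (-1.24) were not called, nor were the proton-coupled Slc36a1 (0.10) and Slc36a4 (0.01). Slc6a8 was called higher without CPB+Nitrite library 2 (0.55, adjusted p = 0.0356).

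**Figure D3:**
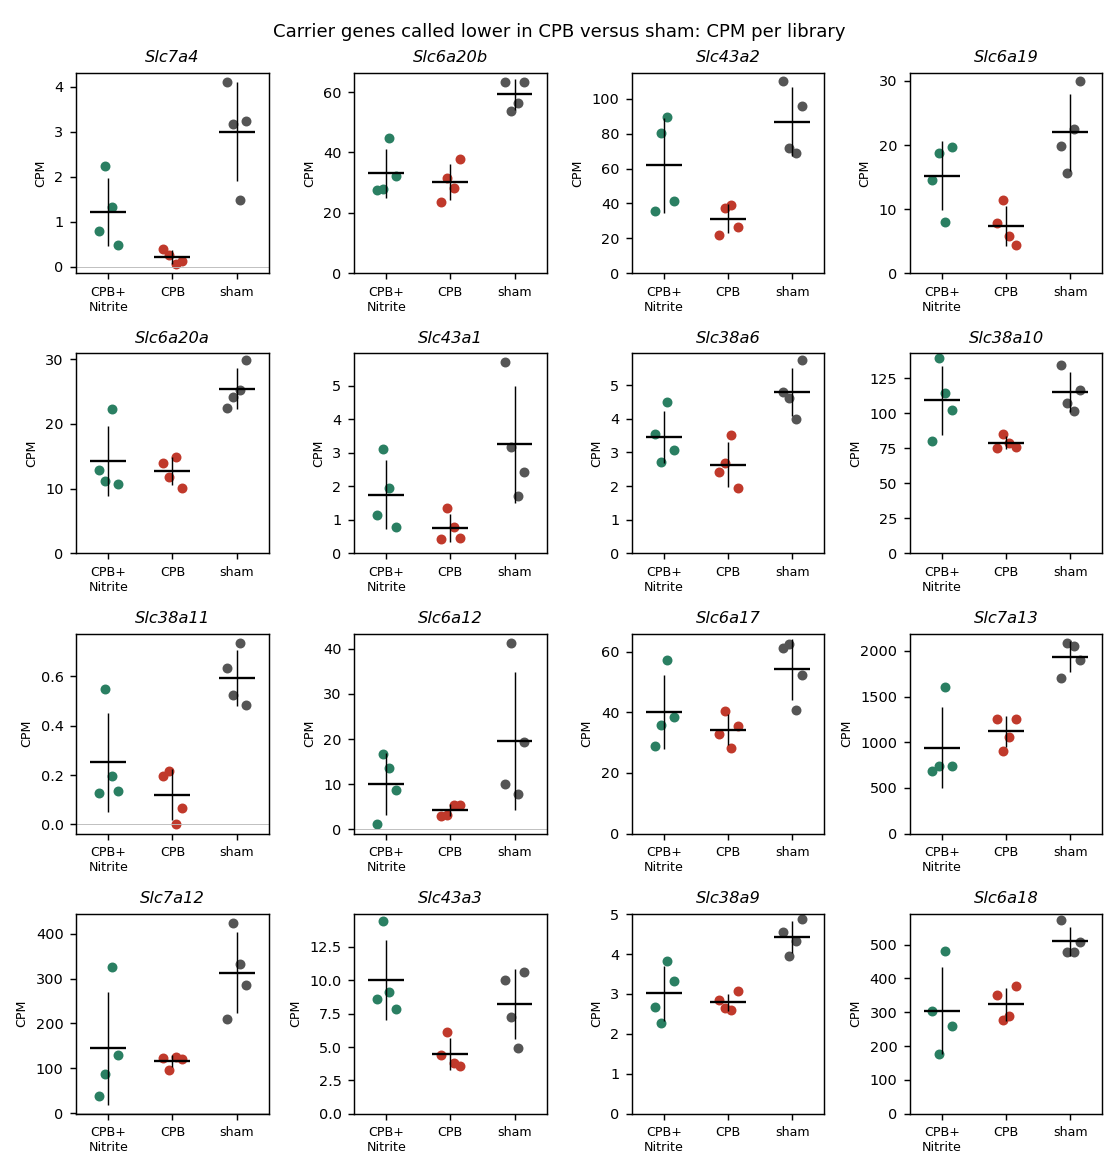
CPM in each library for the 16 genes called lower in CPB versus sham, with CPB+Nitrite, CPB and sham side by side (points are libraries, horizontal lines means, vertical lines SD, n = 4 each). In 15 of the 16 panels the CPB points lie below all sham points, the exception being Slc43a3.

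Marker lists of all 3 tubule segments had lower and no higher members in CPB versus sham. Beside each count below, 21.5% of all genes were lower and 21.7% higher. Of 18 proximal tubule markers 9 were lower in CPB versus sham and 0 higher, with a median log2 change of -0.67, and their sum was 5924 to 8018 CPM in CPB+Nitrite, 6104 to 6725 CPM in CPB and 8901 to 11179 CPM in sham. No marker of that list was at 0. Of 9 tested thick ascending limb and distal tubule markers 3 were lower and 0 higher (median -0.95), with the sums given above and Pvalb at 0 in every library. Of 10 collecting duct markers 4 were lower and 0 higher (median -0.54), with sums of 1566 to 4266 CPM in CPB+Nitrite, 922.4 to 1568 CPM in CPB and 1617 to 2199 CPM in sham. In bulk tissue, fewer cells of a type and less RNA per cell cannot be told apart, and the part of these shifts in the lower carriers was not tested. Adipocyte markers, of which 3 of 7 were lower, summed to 171.6 to 292.3 CPM in CPB+Nitrite, 165.3 to 198.9 CPM in CPB and 196.2 to 527.0 CPM in sham. Leukocyte markers, of which 3 of 10 tested were higher and 1 lower, summed to 40.3 to 57.1 CPM in CPB+Nitrite, 23.7 to 35.9 CPM in CPB and 26.3 to 57.2 CPM in sham. Of 10 endothelial markers 2 were higher and 2 lower, and of 6 podocyte markers 0 were called. Of 5 tested urothelial markers 2 were lower (median -4.15). The urothelial sums were 2.53 to 112.9 CPM in CPB+Nitrite, 0.540 to 6.36 CPM in CPB and 0.9185 to 165.5 CPM in sham. The highest were 112.9 CPM in CPB+Nitrite 1 and 165.5 CPM in sham 1. The part of these cell types in the carrier results was not tested either.

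In CPB+Nitrite versus CPB, 0 of the 44 genes were called, and 0% of all 14664 genes were. At an unadjusted p under 0.05 there were 14 of the 44, beside 29.4% of all genes. DESeq2, which tested more genes, called 8 carriers, 4 in each direction, among 2235 genes in all, and limma voom called 0 carriers and 1 gene in all. The median log2 change was 0.14 over the 44 genes and 0.05 over all genes. The gene with the smallest p was Slc6a9, with a mean of 13.9 ± 9.03 CPM in CPB+Nitrite and 42.4 ± 10.4 CPM in CPB (SD, n = 4 each) and a log2 change of -1.60 (SE 0.38, edgeR adjusted p = 0.0576). All 4 CPB+Nitrite libraries were below all 4 CPB libraries.

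Groups were also apart for 4 further genes in that comparison, 2 of the 5 being higher in CPB+Nitrite, where 6.44% of all genes were apart in the higher and 6.27% in the lower direction. Slc7a4 had a log2 change of 2.41 (SE 0.60, edgeR adjusted p = 0.0584). Slc43a3 had 8.62, 14.4, 9.11 and 7.82 CPM in CPB+Nitrite and 4.39, 6.15, 3.80 and 3.55 CPM in CPB, against 10.1, 7.28, 4.95 and 10.6 CPM in sham (log2 change in CPB+Nitrite versus CPB 1.16, SE 0.29, edgeR adjusted p = 0.0584). Slc6a6, which supplies taurine as an osmolyte, had 87.5, 87.6, 108.4 and 138.0 CPM in CPB+Nitrite and 184.6, 199.8, 139.3 and 165.0 CPM in CPB, against 96.2, 146.1, 149.1 and 142.1 CPM in sham (log2 change in CPB+Nitrite versus CPB -0.71, SE 0.19, edgeR adjusted p = 0.0621). The sham libraries of Slc6a6 overlapped both groups. Slc3a2 had -0.54 (SE 0.18, edgeR adjusted p = 0.0873). Slc43a2 and Slc6a19, whose groups overlapped, had 0.98 (SE 0.30, edgeR adjusted p = 0.0736) and 1.04 (SE 0.34, 0.0792).

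The count in that comparison differed without CPB+Nitrite library 1. Then 13 of 45 genes passed the test, 8 higher and 5 lower, beside 2865 of 14859 genes in all. Among them were Slc6a9 (log2 change -2.15, adjusted p = 0.00574), Slc7a4 (2.53, 0.0218), Slc43a2 (1.13, 0.0227), Slc3a2 (-0.72, 0.0236), Slc43a3 (1.19, 0.0269) and Slc6a6 (-0.67, 0.0442). Without any other single library the count stayed at 0.

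**Figure D4:**
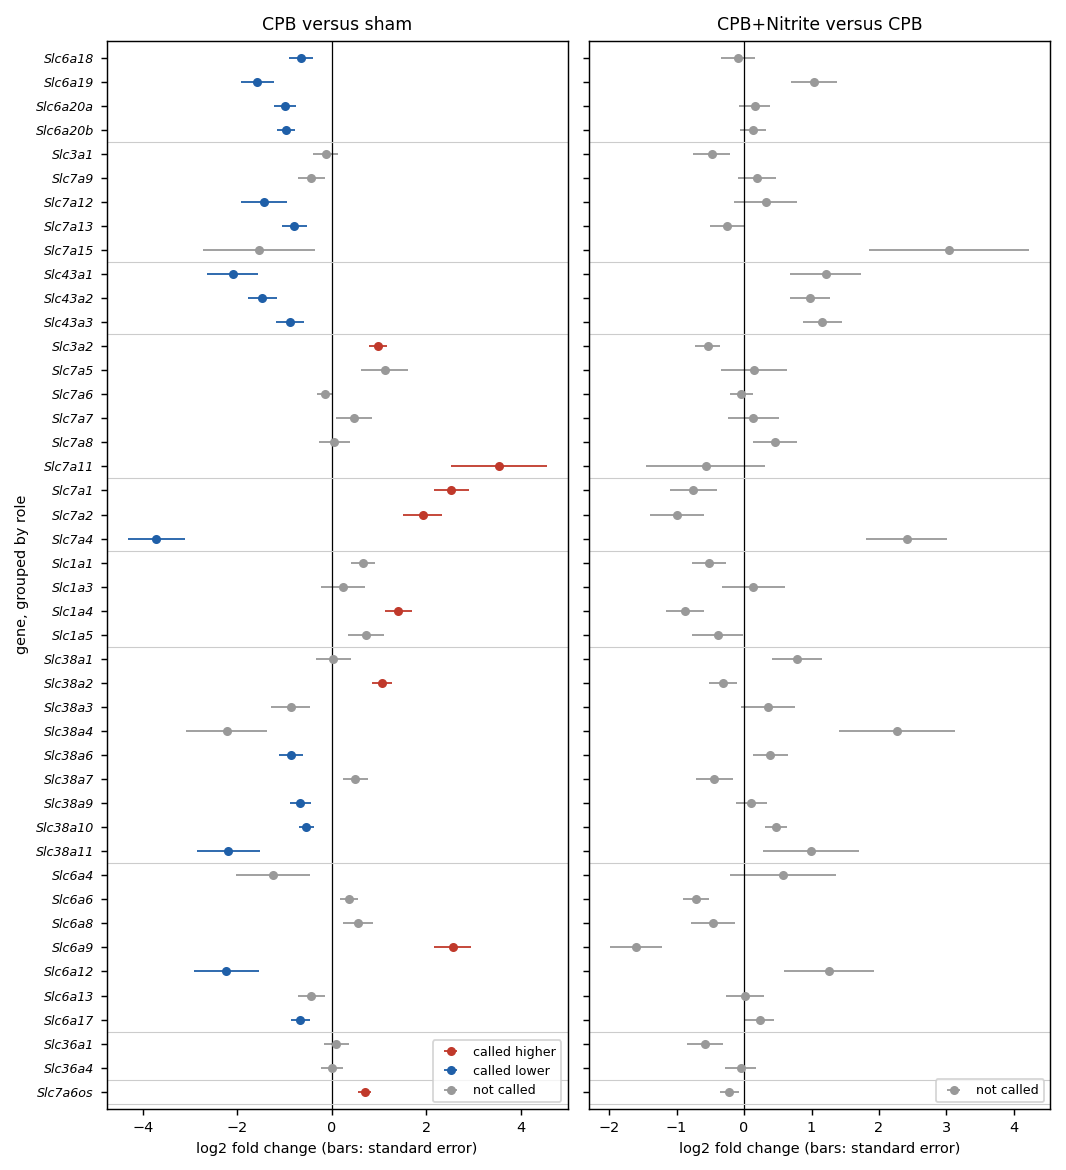
Log2 fold change with its SE for the 44 tested genes, grouped by role, in CPB versus sham (left) and CPB+Nitrite versus CPB (right), where colour marks genes called higher or lower by edgeR. The left panel has 8 genes called higher and 16 called lower, and the right panel has 0 called.

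The 4 CPB+Nitrite libraries took different positions between the other groups. Of the 24 genes called in CPB versus sham, 21, 9, 2 and 17 lay nearer the CPB mean than the sham mean in CPB+Nitrite libraries 1, 2, 3 and 4, on a scale of log2(CPM + 0.1). Libraries 1 and 4 were thus closer to CPB for most of these genes and library 3 closer to sham for nearly all. On the CPB side of the sham mean lay 23, 16, 20 and 24 of the 24 in libraries 1, 2, 3 and 4, so library 3 was still shifted toward CPB for most. The CPB and sham values chose these 24 genes, so the counts are a description.

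In CPB+Nitrite versus sham, 1 of the 44 genes was higher and 2 were lower. Over all genes, 4.81% were called, 3.85% higher and 0.955% lower. Slc7a1 was higher at 3.44-fold (log2 change 1.78, SE 0.36, edgeR adjusted p = 0.03). Slc6a20b was lower (-0.84, SE 0.19, edgeR adjusted p = 0.0382), as was Slc7a13 (-1.04, SE 0.26, edgeR adjusted p = 0.0459), at 941.4 ± 441.7 CPM in CPB+Nitrite and 1937 ± 173.0 CPM in sham (SD, n = 4 each). All 4 CPB+Nitrite libraries lay outside the sham range for these 3 genes. Of the 44 genes, CPB+Nitrite was apart from sham above in 2 and below in 5, where 5.64% and 5.87% of all genes were. Slc38a2, also without overlap, had a log2 change of 0.76 (SE 0.21, edgeR adjusted p = 0.0525), and Slc6a20a had -0.83 (SE 0.23, edgeR adjusted p = 0.0553).

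Each of these 3 calls was lost without certain single libraries, and the count over all genes fell as well. It was 705 with all libraries, and 3, 0, 1 and 0 without sham 1, sham 2, sham 4 and CPB+Nitrite 4. Without CPB 2 it was 98, and without CPB+Nitrite 1 it was 71. Slc7a1 was not called without sham 1, 2 or 4, CPB 2, or CPB+Nitrite 1 or 4 (1.43 to 1.77, adjusted p = 0.0502 to 0.111). Slc6a20b was lost without the same libraries or CPB 3 (-0.88 to -0.77, adjusted p = 0.0574 to 0.111). Slc7a13 was lost without any one sham or CPB library or CPB+Nitrite 1 or 4 (-1.10 to -0.93, adjusted p = 0.056 to 0.133). With the replicate number as a block all 3 calls were lost, and 28 genes were called in all. Without CPB+Nitrite library 2 the count was 8, among 1796 genes in all. The 5 further genes were then Slc38a2 (log2 change 0.85, adjusted p = 0.0285), Slc6a9 (1.23, 0.0232), Slc7a5 (1.61, 0.0192), Slc7a11 (3.39, 0.0189) and Slc7a4 (-1.78, 0.043). Without library 3 it was 13, among 2976.

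Genes outside these families that act with the carriers were followed in lists. Of 28 tested genes of the amino acid response and ATF4 targets that are not carriers, 21 were higher and 1 lower in CPB versus sham. Of all genes, 21.7% were higher and 21.5% lower. The median log2 change of the list was 1.28, against -0.05 over all genes. Atf4 itself had 628.1, 381.6, 204.1 and 530.4 CPM in CPB+Nitrite, 636.4, 532.1, 831.2 and 739.7 CPM in CPB, and 125.7, 147.9, 217.9 and 124.3 CPM in sham. CPB libraries were all above sham, and CPB+Nitrite library 3 was within the sham range. Its log2 change was 2.15 in CPB versus sham (SE 0.32, edgeR adjusted p = 0.00107) and 1.5 in CPB+Nitrite versus sham (SE 0.31, edgeR adjusted p = 0.0313). In CPB versus sham, Atf5, a related factor, had 1.97 (SE 0.27, edgeR adjusted p = 0.000968) and Eif4ebp1, a brake on translation, 2.30 (SE 0.32, 0.00101).

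Among ATF4 targets, the mitochondrial folate enzyme Mthfd2 had a log2 change of 3.36 in CPB versus sham (SE 0.50, edgeR adjusted p = 0.00107). The pseudokinase Trib3 had 3.91 (SE 0.62, edgeR adjusted p = 0.00122), asparagine synthetase (Asns) 2.10 (SE 0.36, 0.00164) and Chac1, which degrades glutathione, 4.79 (SE 0.94, 0.00264). The lower gene was Cth, the enzyme that makes cysteine from cystathionine (-0.89, SE 0.27, edgeR adjusted p = 0.0178). In CPB+Nitrite versus sham 6 of the 28 were higher and 0 lower, beside 3.85% and 0.955% of all genes. In CPB+Nitrite versus CPB 0 were called, as over all genes. These comparisons share libraries.

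**Figure D5:**
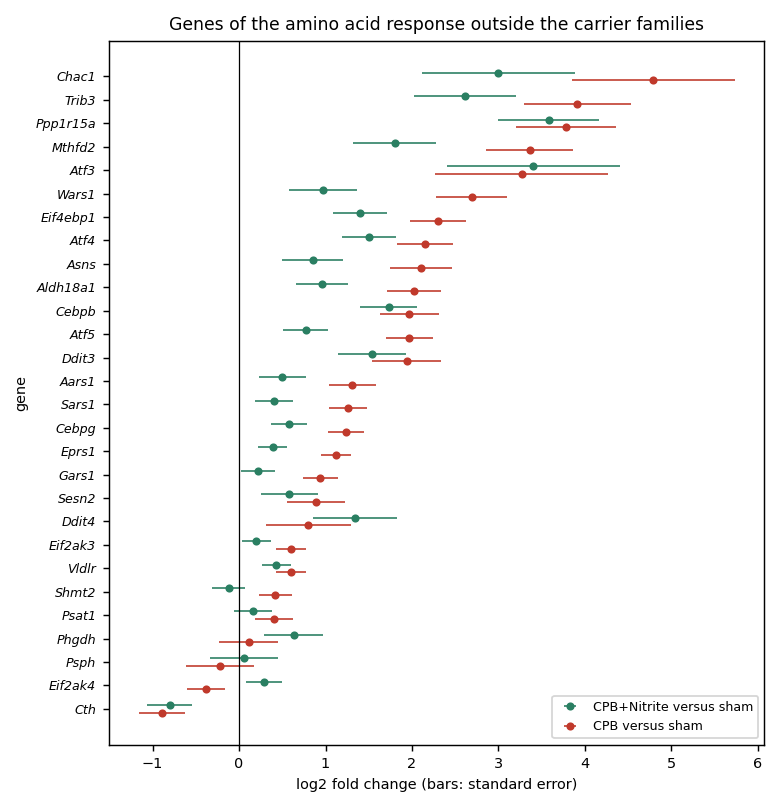
Log2 fold change with its SE for the 28 tested genes of the amino acid response outside the carrier families, in CPB+Nitrite versus sham and CPB versus sham, which share the sham libraries. In CPB versus sham 21 of the genes were called higher, with Chac1 at 4.79, and Cth at -0.89 was the only one called lower.

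Carriers of amino acids and peptides from other families showed calls in both directions. Of 15 tested, 4 were higher and 6 lower in CPB versus sham, where 21.7% and 21.5% of all genes were, with a median log2 change of -0.55. The lysosomal peptide carrier Slc15a3 was higher (2.44, SE 0.41, edgeR adjusted p = 0.00146). Lower were the brush border peptide carrier Slc15a2 (-1.87, SE 0.40, edgeR adjusted p = 0.00409), the mitochondrial aspartate-glutamate carrier Slc25a13 (-1.04, SE 0.21, 0.00275) and the mitochondrial basic amino acid carrier Slc25a29 (-0.89, SE 0.19, 0.0041). Slc16a10, the basolateral carrier of aromatic amino acids, was not called (-0.46, SE 0.20, edgeR adjusted p = 0.0751). Brush border partners and peptidases had 0 of 10 higher and 3 lower, with a median of -0.54, and the share of lower genes over the whole table was 21.5%. Among the lower ones were the peptidases Mep1b (-0.73, SE 0.19, edgeR adjusted p = 0.0099) and Enpep (-0.54, SE 0.17, 0.0234). Cltrn, the collectrin that brings B0AT1 to the brush border in the mouse kidney, had -0.68 (SE 0.28, edgeR adjusted p = 0.0684).

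Genes of glutamine, glutamate and proline metabolism were lower in 7 of 13 cases and higher in 0 in CPB versus sham, where 21.5% and 21.7% of all genes were, with a median log2 change of -0.75. Pck1, the enzyme of gluconeogenesis that uses carbon from glutamine, had 723.7, 1339, 5691 and 1115 CPM in CPB+Nitrite, 318.2, 403.8, 235.4 and 346.4 CPM in CPB, and 5699, 3803, 3493 and 5303 CPM in sham. CPB libraries lay below all others, and CPB+Nitrite library 3 was in the sham range. Its log2 change in CPB versus sham was -3.81 (SE 0.58, edgeR adjusted p = 0.00107). Prodh, the first enzyme of proline breakdown, had -1.59 (SE 0.36, edgeR adjusted p = 0.00503). Of 29 tested genes that report amino acids to mTORC1, 4 were higher and 8 lower, with a median of -0.16, beside 21.7% and 21.5% of all genes. Among the lower ones were the arginine sensor Castor1 (-1.82, SE 0.33, edgeR adjusted p = 0.00209) and the leucine sensor Sesn1 (-0.78, SE 0.16, 0.00356). The 4 higher ones were Sesn2, a leucine sensor as well (0.89, SE 0.33, edgeR adjusted p = 0.0471), Fnip2, Rragc and Mios, named here after their values were seen. The glutathione synthesis list had 2 of 9 higher and 1 lower (median -0.11), against the same shares of all genes. Of its 2 higher genes 1 was Chac1, which degrades glutathione and does not make it. The list of organic osmolytes and the factor NFAT5 had 2 of 6 higher and 0 lower (median 0.04), again against these shares. The genes called in it were Hspa4l (0.78, SE 0.23, edgeR adjusted p = 0.0176) and the myo-inositol carrier Slc5a3 (1.93, SE 0.59, 0.0208).

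Several carrier genes are neighbours in the genome, at most 100 kb apart in mRatBN7.2. Slc6a19 and Slc6a18 lie 3.1 kb apart on chromosome 1, Slc6a20b and Slc6a20a 2.8 kb apart on chromosome 8, and Slc43a1 and Slc43a3 62.5 kb apart on chromosome 3, and in each pair both genes were lower in CPB versus sham. In 3 other pairs 1 gene was called. Slc38a2 was higher beside Slc38a1 (chromosome 7, 49.0 kb), Slc6a12 was lower beside Slc6a13 (chromosome 4, 9.3 kb), and Slc7a6os was higher beside Slc7a6 (chromosome 19, 1.7 kb). Slc6a18 also lies 87.5 kb from the untested Slc6a3, and Slc36a1, not called, 18.3 kb from the untested Slc36a2 on chromosome 10. Slc7a6os had 18.6, 17.4, 13.9 and 19.3 CPM in CPB+Nitrite, 18.8, 20.5, 21.1 and 20.2 CPM in CPB, and 11.66, 12.03, 14.2 and 11.8 CPM in sham, with every CPB library above sham (log2 change 0.70, SE 0.14, edgeR adjusted p = 0.00333). It lies on the opposite strand to Slc7a6, and the annotated genes do not overlap. The counting is not stated to use strand.

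The 15 untested genes were near the limit of detection, at 0.680 CPM or less in every library apart from Slc6a3. Slc1a2, a glutamate carrier, passed the filter without CPB 2 or any one CPB+Nitrite library and was then called higher in CPB versus sham (log2 change 1.43 to 1.67, adjusted p = 0.0244 to 0.0426, and 1.43 and 0.0275 without CPB+Nitrite 2). The filter admitted it through CPB 1, 3 and 4 (0.514, 0.680 and 0.536 CPM), while every other library had 0.338 CPM or less. Its entry thus came from the group where it was high, and the call is no support for a rise. A count of 0 allows up to 3 reads, or 0.11 to 0.201 CPM by library. Slc6a3, the dopamine carrier, had 0, 238, 0 and 16 reads in CPB+Nitrite, 0 in every CPB library and 0, 1, 1 and 0 in sham, so it was seen almost wholly in CPB+Nitrite library 2. Slc6a14, a carrier of neutral and cationic amino acids, had 1, 0, 0 and 0 reads in CPB+Nitrite, 0, 1, 3 and 10 in CPB, and 0 in every sham library.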

How the data were processed

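RNA from 12 rat kidney samples was sequenced, with 4 libraries each of CPB+Nitrite, CPB and sham. Per the labels' protocols a strand-marking kit was used. Named without roles in the submitters' processing notes are Salmon 1.2.1, R 3.5.1, cutadapt 1.18, bcl2fastq 2.19 and the build mRatBN7.2. The deposited count table holds the authors' estimated counts per gene, not normalised, of which 33.15% of non-zero values were not whole (tolerance 1e-06). The second deposited table is a scaled signal, in which the authors multiplied each library by 1 factor (largest departure 0.0033 of the value). It supplied symbols, biotypes and coordinates only.

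Estimated counts were rounded. Genes were kept by filterByExpr (minimum count 10) and fitted over all 12 libraries in edgeR 4.0.16 (R 4.3.3) with TMM factors, glmQLFit and glmQLFTest, without covariates, which left 9 residual degrees of freedom. The common biological coefficient of variation was 0.317. All tests were two-sided with Benjamini-Hochberg adjustment over the tested genes (threshold 0.05). The steps were tested on simulated data. Totals of 16.8 to 25.8 M reads give counting error well under the spread between replicates except for genes with few reads. Floors and counts cover counting error only.

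The carriers, their roles, the lists and the tests were chosen with earlier results of these data known. Values in every library are given for the 8 genes called higher and 8 called lower with the smallest p in CPB versus sham, the 6 with the smallest p in CPB+Nitrite versus CPB, those called in CPB+Nitrite versus sham, 15 renal carriers, and a few more. From each list up to 4 called genes with the smallest p are named, plus Atf4, Asns, Trib3, Chac1, Cltrn and Slc16a10. A result that the rule allows is not reported here. Promoters are from RefSeq (GRCr8), matched by gene identifier, or by symbol where the identifier gave no match. Alternatives were RLE factors, total counts, no filter, a mean of at least 2 CPM, a block on replicate number, voom with sample weights in limma 3.58.1, DESeq2 1.42.0, and leaving out each library in turn.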

Additional observations from a re-analysis of the deposited data

Results flagged for a closer look

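For 32 genes with values in every library, the highest or lowest library of each group of 4 was compared with the rest of its group by Dixon's ratio, in 96 groups. In 6 groups 1 library was far from the other 3 (beyond the 95% critical value). Chance alone flags about 1 in 20 groups.

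Libraries far above their group were CPB+Nitrite 2 for Slc38a11 (0.550 CPM), CPB+Nitrite 3 for Slc7a13 (1602 CPM) and sham 3 for Slc7a6os (14.2 CPM). Libraries far below their group were CPB 2 for Slc7a12 (96.8 CPM), sham 2 for Slc3a2 (141.5 CPM) and sham 1 for Slc6a6 (96.2 CPM).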

How the results depend on the processing

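Of the 24 genes called in CPB versus sham, 12 were called under all 19 alternatives (Slc1a4, Slc38a2, Slc3a2, Slc43a2, Slc6a19, Slc6a20a, Slc6a20b, Slc6a9, Slc7a1, Slc7a11, Slc7a2 and Slc7a6os), and Slc43a1 and Slc7a4 under the 18 that tested them. None reversed. Limma voom gave 14 higher and 20 lower, beside 4348 and 4649 over all genes. DESeq2 gave 11 and 18 (3661 and 3401 over all genes), and no filter gave 10 and 15 (2992 and 2951). DESeq2 and no filter took in genes near the limit of detection. Limma voom also called Slc1a5, Slc38a7, Slc6a8 and Slc7a7 higher and Slc6a13 and Slc7a15 lower. Slc7a5 was called with DESeq2 and limma voom, and Slc38a3 with total counts and limma voom. Slc38a9 lost its call with no filter. Leaving out 1 library gave 8 to 13 higher (13 without CPB+Nitrite 2, Slc1a2 among them). It gave 9 to 18 lower (9 without CPB 4, 10 without CPB 3 or sham 2). Between CPB+Nitrite and CPB, DESeq2 called 8 genes (2235 over all genes), and leaving out 1 library gave 0 to 13 (0 to 2865). Against sham, CPB+Nitrite had 3 called (705 over all genes). A mean of at least 2 CPM gave 5 (808), DESeq2 8 (2144), limma voom 11 (2870), and leaving out 1 library 0 to 13 (0 to 2976). The causes were not tested.

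Whether equal replicate numbers mark paired libraries could not be settled. Of 12 same-numbered pairs 3 had a correlation over 0.1 (-0.107 to 0.381), and 6 of 12 libraries correlated best with their own number. With the replicate number as a block, CPB versus sham kept 8 higher and 16 lower, CPB+Nitrite versus CPB 0, and CPB+Nitrite versus sham had 0 (adjusted p = 0.0648 for Slc7a1, 0.0651 for Slc6a20b and 0.0677 for Slc7a13). Over all genes the block left 6229 called in CPB versus sham and 28 in CPB+Nitrite versus sham.

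Reversed signs were all among genes not called, here with the range over leaving out 1 library. Slc7a8 in CPB versus sham had -0.13 with total counts (-0.11 to 0.22, below 0 without sham 2 or 3 or CPB 2). For CPB+Nitrite against CPB, Slc6a18 had 0.02 with total counts (-0.40 to 0.10, above 0 without CPB+Nitrite 2), Slc7a5 -0.03 with the block (-0.26 to 0.49, below 0 without CPB+Nitrite 1 or 4) and Slc7a7 -0.02 with voom (-0.14 to 0.43, below 0 without CPB+Nitrite 1). Slc38a3 (-0.30 to 0.61) and Slc6a20a (-0.14 to 0.27) were below 0 without CPB+Nitrite 3, and Slc7a9 (-0.11 to 0.36) without CPB 4 or CPB+Nitrite 1. For CPB+Nitrite against sham, Slc1a1 (-0.08 to 0.37) was below 0 without CPB+Nitrite 1. Over all single-gene results and alternatives, 1130 of 1269 values kept their direction and side of the threshold, 75 lost a call and 48 gained one. Few reads limit Slc38a11, Slc7a4 and Slc7a11.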
